A study of Homo sapiens with 6 samples.

Results

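The BCL2 family controls the mitochondrial route to apoptosis, and 10 of its genes were followed here after PAX9 depletion in MCF10A cells: the pro-survival genes BCL2, BCL2L1 and MCL1, the pore-forming effectors BAX and BAK1, and the BH3-only genes BBC3, PMAIP1, BCL2L11, BID and BIK. They were found by exact symbol among the 26822 gene symbols of the deposited table, and where a symbol stood on more than 1 row the row with the highest mean value was kept. MCF10A is an established, non-tumorigenic line of human breast epithelial cells, grown here with serum, epidermal growth factor, hydrocortisone, cholera toxin and insulin. The cells received 30 nM of either a non-targeting control siRNA (siNT, 3 samples) or siRNAs against PAX9 (siPAX9, 3 samples), and polyadenylated RNA was sequenced after 72 hours of knockdown. The table gives 1 FPKM per group and locus (a read count divided by transcript length and by the size of the library), the authors' value for the 3 samples together, so all 6 samples are present but none can be seen alone. No spread between samples, no error of a fold change and no test over samples can be had from these values, the number of reads behind an FPKM is unknown, and every difference below is a difference between 2 pooled values.

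Proteins of the BCL2 family meet at the outer mitochondrial membrane. The effectors BAX and BAK can assemble into pores that release cytochrome c, the pro-survival members hold them and their activators in check, and the BH3-only proteins, named for the single short helix they share with the rest of the family, either occupy the pro-survival proteins or activate the effectors directly. Cells of epithelial origin commonly depend on MCL1 or on the BCL2L1 product BCL-XL, and several BH3-only genes, among them BBC3 and PMAIP1, are known to be induced by cell stress.

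The BH3 segment is the part of the coding sequence that all of these genes share. The coding sequences below encode 8 residues at the core of that helix, read from the GRCh37 genome at the canonical GENCODE transcript of each gene, and are written 5′ to 3′ on the coding strand with the codons for the paired glycine (alanine in BBC3) and aspartate residues in capitals.
BCL2 (chr18:60985588-60985611, minus strand, exon 2 of 3): ctccgccaggccGGCGACgacttc
BCL2L1 (chr20:30309731-30309754, minus strand, exon 2 of 3): ctgagggaggcaGGCGACgagttt
MCL1 (chr1:150551347-150551370, minus strand, exon 1 of 3): ttacgacgggttGGGGATggcgtg
BAX (chr19:49459044-49459067, plus strand, exon 3 of 6): ctcaagcgcatcGGGGACgaactg
BAK1 (chr6:33543170-33543193, minus strand, exon 4 of 6): ctcgccatcatcGGGGACgacatc
BBC3 (chr19:47729842-47729865, minus strand, exon 3 of 4): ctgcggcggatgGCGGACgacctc
PMAIP1 (chr18:57569905-57569928, plus strand, exon 2 of 2): ctcaggagatttGGAGACaaactg
BCL2L11 (chr2:111907680-111907703, plus strand, exon 3 of 4): ttgcggcgtattGGAGACgagttt
BID (chr22:18222187-18222210, minus strand, exon 4 of 6): ctcgcccaggtcGGGGACagcatg
BIK (chr22:43523722-43523745, plus strand, exon 3 of 5): ctggcctgcatcGGGGACgagatg
The pattern used to find them was a leucine codon, any 2 codons, a codon for a hydrophobic residue or alanine, a glycine or alanine codon, an aspartate codon, any codon and a hydrophobic codon. It was written with the family in mind, so its presence once in each of the 10 genes is a description and not a result. It occurred in 722 of 19268 coding sequences searched (3.75%). At the level of bases the segments differed from one another, with 10 distinct sequences in 10 genes. The aspartate codon was GAC in 9 genes and GAT in MCL1, and the glycine codon was GGG in 5 genes, GGC in 2 and GGA in 2. In PMAIP1, the shortest coding sequence of the group, the segment began at codon 29 of 54. In MCL1, the longest, it began at codon 213 of 350.

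PAX9, the target of the siRNAs, had an FPKM of 2.80 under siNT and 0.325 under siPAX9. As a check of the labelled cell type, all 8 epithelial markers examined (KRT5, KRT14, KRT17, KRT18, CDH1, EPCAM, TP63 and ITGA6) had an FPKM of at least 16.7 in both groups. Their sum, 3720 in siNT and 4318 in siPAX9, came mostly from KRT5 and KRT17, and the others differed in both directions. EPCAM was at 34.3 and 16.7, KRT18 at 211.7 and 118.9 and TP63 at 35.4 and 25.3, all lower in siPAX9, whereas CDH1 was higher, at 45.3 and 124.4. The 6 markers of other cell types summed to 10.8 and 15.3, most of it from ACTA2, with COL3A1 and CD3E listed at 0 in both groups. COL1A1 was at 0.454 and 4.13 and PECAM1 at 2.58 and 0.495, and the part of these marker differences in the results below was not tested. Over the 12831 named loci whose higher FPKM was 1 or more and whose lower FPKM was above 0, the median log2 change of siPAX9 over siNT was -0.063. Fold changes below are ratios of FPKM with nothing added, and a gene was counted where the higher FPKM was at least 2 times the lower.

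Relative to siNT, PAX9 depletion was accompanied by opposite differences in the pro-survival mRNAs, while the mRNAs of both effectors and of 4 of the 5 BH3-only proteins differed by less than 1.5-fold. Of the 10 genes, 9 reached an FPKM of 1 in at least 1 group, and 1 of these 9, MCL1, was at least 2-fold different. Across all named loci 14.2% were at least 2-fold different (7.26% higher and 6.89% lower in siPAX9), so the share of 1 in 9 (11.1%) was near that background. At a fold of 1.5 the count was 3 of 9 (33.3%), namely MCL1, BCL2L1 and BIK, against 31.0% of all named loci (14.3% higher and 16.8% lower). The median log2 change of the 9 genes was 0.039, and 5 of the 9 lay within 0.25 of 0, as did 36.5% of the named loci. All 10 genes together split evenly, with 5 higher and 5 lower in siPAX9. Nothing particular to the family as a whole is therefore shown by the counts, and the account that follows is of its single members.

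**Figure D1:**
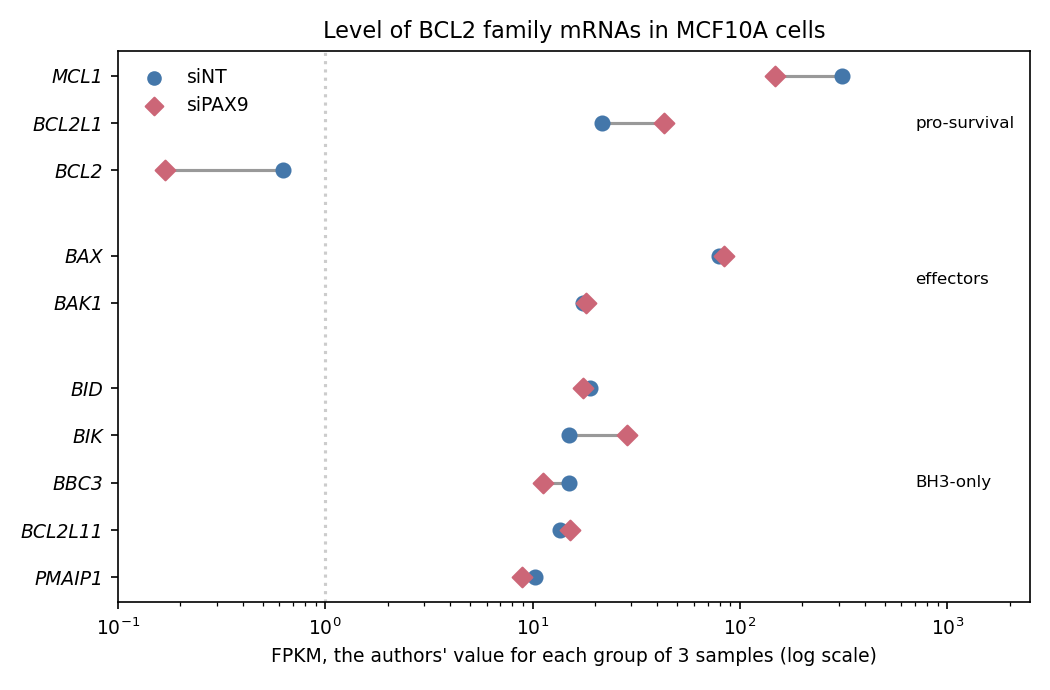
FPKM of the 10 BCL2 family mRNAs on a log axis, with circles for siNT and diamonds for siPAX9, each symbol the authors' value for a group of 3 samples, and a dotted line at an FPKM of 1. MCL1 and BCL2 lie to the left in siPAX9, BCL2L1 and BIK to the right, and the symbols of BAX and BAK1 nearly coincide.

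MCL1, a short-lived pro-survival protein that binds BAK and many BH3-only proteins, had the highest mRNA level of the 10 genes in both groups. Its FPKM was 310.1 in siNT and 147.9 in siPAX9, a level 2.10-fold lower (log2 change -1.07). The siNT value exceeded that of 98.4% of named loci and the siPAX9 value that of 97.2%, so MCL1 remained an abundant mRNA after PAX9 depletion. In bulk RNA, fewer cells that express a gene and less of its mRNA per cell cannot be told apart. A decrease at least as large was seen at 6.07% of named loci. Abundant mRNAs as a class leaned the same way, since the 593 named loci with a mean FPKM of at least 100 had a median log2 change of -0.34, and 10.3% of them were at least 2-fold lower. The row that holds MCL1 (XLOC_002017, chromosome 1, 150521845 to 150552214 on hg19) also carries the symbol ADAMTSL4-AS1 and spans 30.4 kb, whereas the annotated MCL1 gene spans 18.8 kb on the minus strand, so a part of the value could come from the antisense transcript. The same interval holds 2 further rows. ADAMTSL4, on the opposite strand, was at 4.10 and 4.04, and the row named for MIR4257 was at 76.6 and 45.6 (log2 change -0.75).

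BCL2L1, which encodes the pro-survival protein BCL-XL and, by alternative splicing, the shorter pro-apoptotic BCL-XS, was higher in siPAX9. Its FPKM was 21.6 in siNT and 42.9 in siPAX9, a 1.99-fold difference (log2 change 0.99) that fell just short of 2-fold. An increase at least as large was seen at 7.34% of named loci. Among the 1799 named loci of similar level, with a mean FPKM of 30 to 100, 3.22% were at least 2-fold higher. A locus value does not separate the splice forms, so the level of BCL-XL mRNA alone is unknown. BCL2L1 stands on 2 rows with the same interval (chromosome 20, 30252238 to 30311802 on hg19). The row kept (XLOC_022739) has a number that lies among those of genes on the minus strand, the strand of BCL2L1, for all 169 single-symbol rows within 100 numbers of it. The other row (XLOC_022348) lies among genes on the plus strand for all 166 such rows, next to ABALON, a long noncoding RNA transcribed antisense to BCL2L1. That other row was at 6.16 in siNT and 6.51 in siPAX9, and ABALON at 1.93 and 3.30. With both BCL2L1 rows summed, the log2 change was 0.83.

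BCL2, the founding pro-survival gene of the family, had the lowest mRNA level of the 10 genes in both groups. Its FPKM was 0.629 in siNT and 0.170 in siPAX9, 3.71-fold lower (log2 change -1.89), under the minimum of 1 in both groups. Only 2.64% of the named loci above that minimum had a lower FPKM in siNT. A decrease at least as large was seen at 1.47% of the named loci that reached the minimum. At levels under the minimum large ratios are common, more often as increases than as decreases. Of the 5003 named loci under 1 in both groups, 42.7% were at least 2-fold different and 11.6% at least 2-fold lower, and among the 984 named loci with an FPKM of 0.5 to 1 in the higher group 9.45% were at least 2-fold lower. With 1 added to each FPKM the log2 change of BCL2 was -0.48. The locus covers 196 kb on chromosome 18 (60790579 to 60986613 on hg19).

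The 3 pro-survival members together had a summed FPKM of 332.3 under siNT and 190.9 under siPAX9, a log2 change of -0.80. The pro-survival gene BCL2L2, at 89.4 in siNT and 84.9 in siPAX9, is not among the members and not in that sum. Its row is shared with PABPN1, so its level is uncertain. MCL1 made up 93.3% of that sum in siNT and 77.4% in siPAX9. BCL2L1 made up 6.50% and 22.5%, and BCL2 less than either in both groups. FPKM is scaled to transcript length, so these levels can be set side by side across genes, and the ratio of MCL1 to BCL2L1 went from 14.4 in siNT to 3.45 in siPAX9. The direction of the sum rested on MCL1, since BCL2L1 and BCL2 alone had a log2 change of 0.96.

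**Figure D2:**
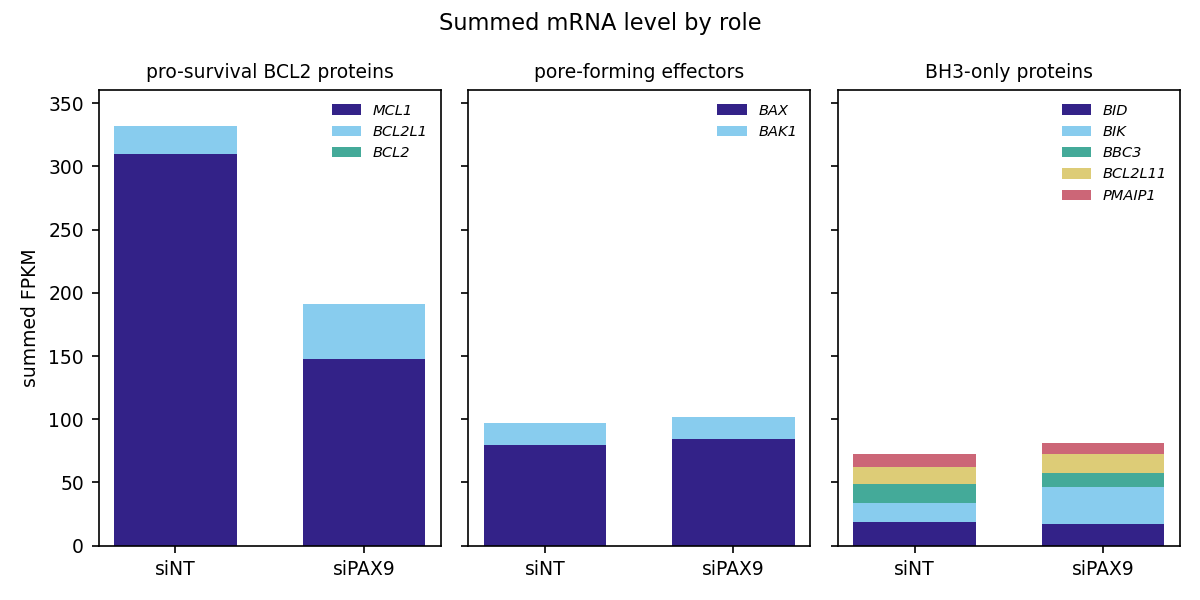
Summed FPKM of the members by role in siNT and siPAX9, on a linear axis from 0, with 1 colour per gene within each panel. The pro-survival bar is shorter in siPAX9 and holds a larger share of BCL2L1, while the effector bars are at 97.1 and 102.0.

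Of the effectors, BAX was the more abundant at the mRNA level. BAX, which moves from the cytosol to mitochondria to form pores, had an FPKM of 79.5 under siNT and 84.0 under siPAX9 (log2 change 0.080, locus on chromosome 19 from 49458079 to 49465055). BAK1, whose product already resides in the outer membrane, was at 17.5 and 18.03 (log2 change 0.039, chromosome 6 from 33540090 to 33548070). BAX therefore made up 81.9% of the effector sum in siNT and 82.3% in siPAX9. The effectors were the pair of members with the smallest differences, and each sat within the middle 50% of all named loci, which ran from -0.41 to 0.30 on the log2 scale. The value of BAK1 may include reads from its annotated pseudogenes BAK1P1 and BAK1P2 where these could not be told apart. Because MCL1 was lower, the FPKM ratio of BAX to MCL1 was 0.256 in siNT and 0.568 in siPAX9.

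BIK was the BH3-only gene with the largest difference. BIK, a protein of the endoplasmic reticulum known for its expression in epithelia and its binding to BCL-XL and BCL2, had an FPKM of 15.02 under siNT and 28.6 under siPAX9, 1.90-fold higher (log2 change 0.93). Increases at least as large were seen at 8.04% of named loci. Among the 4066 loci of similar level, with a mean FPKM between 10 and 30, the share with an increase at least as large was 3.69%. No other annotated gene overlaps its row (XLOC_024012, chromosome 22, 43506754 to 43525761 on hg19). BIK went from the sixth highest of the 10 genes in siNT to the fourth in siPAX9, passing BID and BAK1. Its ratio to BCL2L1, which was higher to a like extent, was 0.696 in siNT and 0.667 in siPAX9.

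The stress-induced BH3-only genes BBC3 and PMAIP1 were lower in siPAX9. BBC3, which encodes PUMA, a BH3-only protein that binds all pro-survival members, had an FPKM of 15.02 under siNT and 11.2 under siPAX9 (log2 change -0.42). Its row (chromosome 19, 47724057 to 47736023) is shared with the microRNA gene MIR3191. PMAIP1, which encodes NOXA, known for binding MCL1 and promoting its degradation, was at 10.2 and 8.92 (log2 change -0.20, chromosome 18 from 57567192 to 57571538). Decreases as large were common, at 24.3% of named loci for BBC3 and 39.2% for PMAIP1. The FPKM ratio of PMAIP1 to MCL1 was 0.0330 in siNT and 0.0603 in siPAX9.

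The activators BCL2L11 and BID differed least among the BH3-only genes. BCL2L11, which encodes BIM, was at 13.6 in siNT and 15.1 in siPAX9 (log2 change 0.15, chromosome 2 from 111878491 to 111926022). BID, whose protein is cut by caspase-8 and links death receptors to mitochondria, was at 18.9 and 17.4 (log2 change -0.12, chromosome 22 from 18214027 to 18257431). Both lay within the middle 50% of all named loci. A long noncoding RNA gene on the opposite strand, MIR4435-2HG, overlaps the BCL2L11 interval.

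The 5 BH3-only genes summed to an FPKM of 72.7 under siNT and 81.2 under siPAX9 (log2 change 0.16). BIK made up 20.7% of the sum in siNT and 35.2% in siPAX9, while the share of BBC3 went from 20.7% to 13.8%. Without BIK the sums were 57.7 and 52.6, a log2 change of -0.13, so the direction of the sum rested on BIK. The effector and BH3-only members together summed to 169.8 in siNT and 183.3 in siPAX9. That was 0.511 times the pro-survival sum in siNT and 0.960 times in siPAX9. The direction of this ratio rested on MCL1, since without MCL1 the pro-survival sum had a log2 change of 0.96. Other family genes, among them BCL2L2, BAD, BOK, BMF and HRK, are in neither sum, so the ratios hold for the members only. These are ratios of mRNA levels and say nothing of protein.

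**Figure D3:**
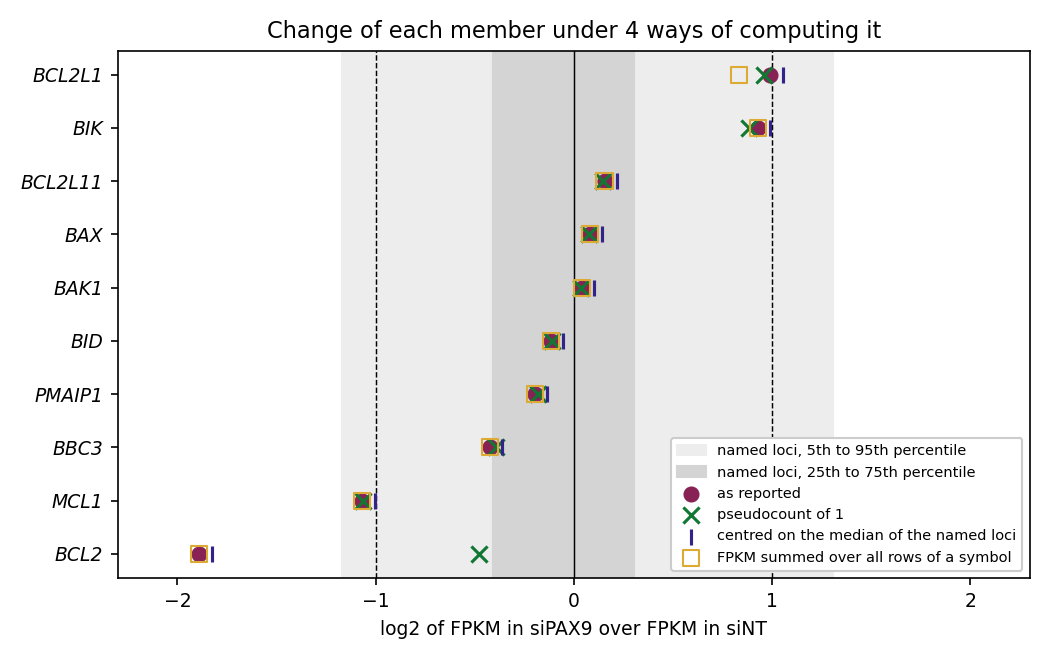
Log2 change of each member (siPAX9 over siNT) under 4 ways of computing it, with dashed lines at a 2-fold difference and grey bands for the spread of all named loci. Most symbols of a gene coincide, BCL2 moves from -1.89 to -0.48 when 1 is added to each FPKM, and BCL2L1 spans the 2-fold line between 0.83 and 1.05.

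**Figure D4:**
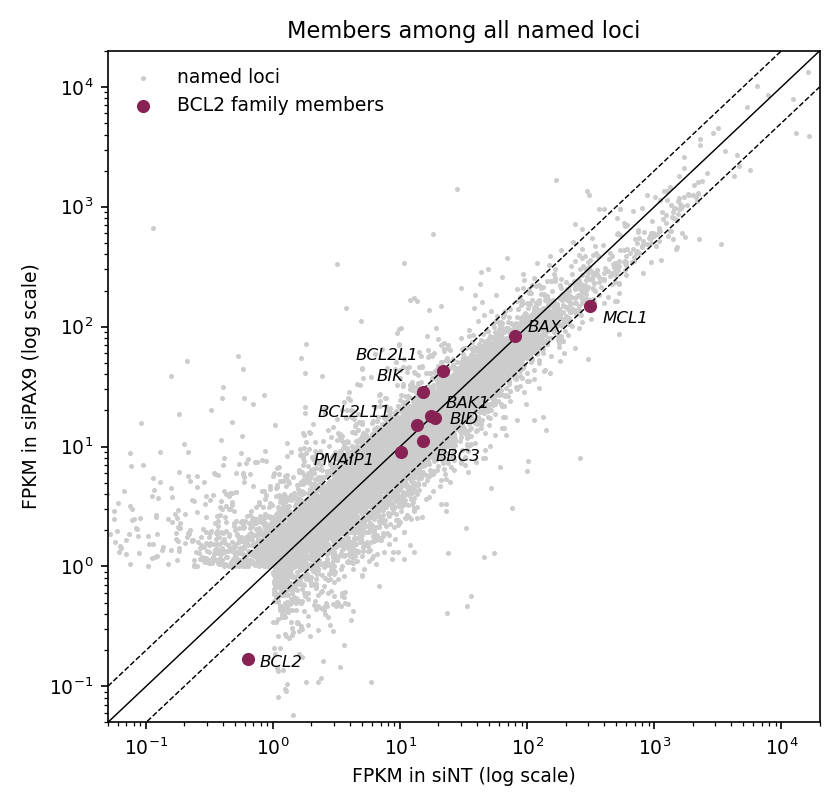
FPKM in siPAX9 against FPKM in siNT on log axes for named loci that reached an FPKM of 1 (grey, 27 of 12831 lie outside the axes) and for the 10 members, with a solid line of equality and dashed lines at 2-fold. MCL1 sits on the lower dashed line at the high end, BCL2L1 and BIK near the upper one, and BCL2 at the low end.

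In the order of levels, MCL1, BAX and BCL2L1 led in that order in both groups, with PMAIP1 ninth and BCL2 last. The members from the fourth to the eighth place lay between 13.6 and 18.9 in siNT and between 11.2 and 28.6 in siPAX9, and whether neighbours within that range differ cannot be told without the spread between samples.

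Beyond the 10 members, 13 other genes of the family were examined, and of those above the minimum BMF and HRK were at least 2-fold different, both higher in siPAX9 and both low in siNT. BMF, a BH3-only protein tied to the cytoskeleton and known to respond to loss of adhesion, had an FPKM of 0.404 under siNT and 7.01 under siPAX9, 17.4-fold higher (log2 change 4.12). BMF passed the minimum only through siPAX9, and its fold rests on a siNT value under 1, the precision of which is unknown. With 1 added to each FPKM its log2 change was 2.51. HRK, a BH3-only protein best known from neurons, was at 1.26 and 3.77, 3.00-fold higher (log2 change 1.58, or 1.08 with 1 added to each FPKM). Their BH3 segments, written as above, were the following, with the alanine codon of BMF in place of glycine.
BMF (chr15:40396402-40396425, minus strand, exon 4 of 5): cttcagtgcattGCAGACcagttc
HRK (chr12:117318981-117319004, minus strand, exon 1 of 2): ctcaaggcgctaGGCGACgagctg
These were the 2 genes that were at least 2-fold different among the 10 of the list that reached an FPKM of 1, and none was 2-fold lower, beside 7.26% of named loci that were 2-fold higher and 6.89% that were 2-fold lower. At the level of BMF and HRK, a mean FPKM between 1 and 5, the share 2-fold higher was 13.0%. No share was computed at the larger fold of BMF. The other 8 were BCL2L10 (0.614 and 1.21), BOK (14.3 and 16.4), BAD (27.9 and 27.99), BCL2L2 (89.4 and 84.9), BCL2L12 (7.16 and 6.98), BCL2L13 (17.1 and 15.96), BNIP3 (36.9 and 32.9) and BNIP3L (25.5 and 22.4). BCL2L2, a pro-survival gene, shares its row with PABPN1, so its level is uncertain. BCL2A1, BCL2L14 and BCL2L15 were below the minimum in both groups. The median log2 change of the 10 genes was -0.018, against -0.063 for all named loci, and after centring on the latter BCL2L12 changed sign and BCL2L10 passed 2-fold. Of all 23 family genes, members included, 19 reached an FPKM of 1 and 3 of these were at least 2-fold different, beside 14.2% of all named loci.

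Genes on either side of the mitochondrial step were examined in 7 further lists. Of the 63 genes in these lists and the list of other family genes that reached an FPKM of 1, 9 (14.3%) were at least 2-fold different, 6 higher and 3 lower, beside 14.2% of all named loci. Downstream, none of the 7 genes of the apoptosome and of factors released from mitochondria was 2-fold different, and their log2 changes ran from -0.13 to 0.31. CYCS, which encodes cytochrome c, was the most abundant of them, at 35.0 in siNT and 38.9 in siPAX9. Of the 7 other caspases 1 was at least 2-fold different, the initiator CASP10, at 1.05 and 3.86 (log2 change 1.87, or 1.24 with 1 added to each FPKM).

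**Figure D5:**
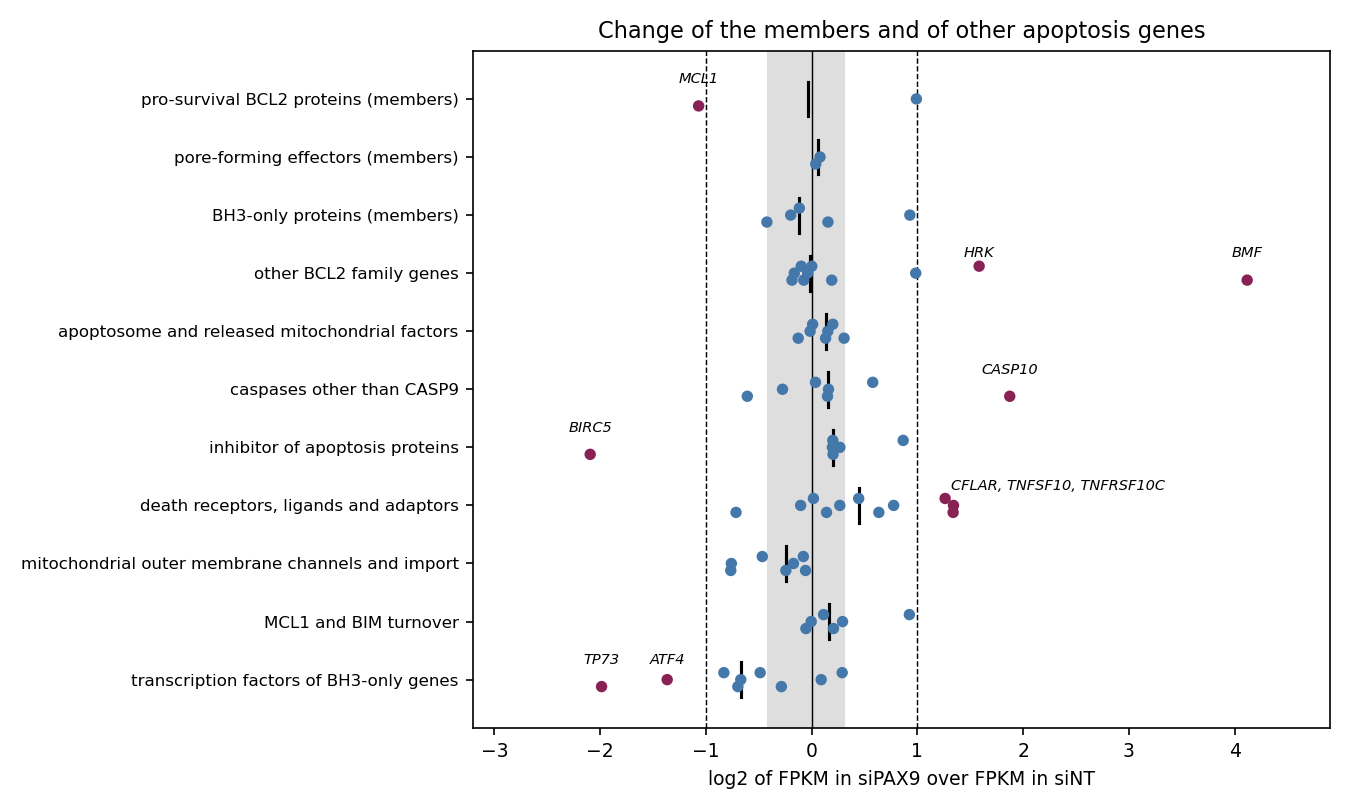
Log2 change (siPAX9 over siNT) of each gene that reached an FPKM of 1, by list, with black bars at the median of a list, dashed lines at 2-fold and a grey band for the middle 50% of all named loci. Genes at least 2-fold different are named, and BMF, with a siNT value under 1, is plotted at 4.12.

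Of the 6 inhibitor of apoptosis genes that passed the minimum, 1 was at least 2-fold different, beside 14.2% of all named loci. BIRC5, which encodes survivin, a protein of the mitotic chromosomal passenger complex as well as of this family, was at 18.005 in siNT and 4.22 in siPAX9 (log2 change -2.09). The most abundant of them, BIRC3, was at 122 and 223 (log2 change 0.87). On the death receptor side 3 of 11 genes were at least 2-fold different, all higher in siPAX9, beside 7.26% of named loci that were 2-fold higher. TNFSF10, the ligand TRAIL, was at 3.82 and 9.65, TNFRSF10C, a decoy receptor for TRAIL that shares its row with LOC254896, at 2.13 and 5.41, and CFLAR, an inhibitor of caspase-8, at 21.2 and 50.9. Among rows with 1 symbol only, 2 of 10 genes were 2-fold higher. The activating receptor TNFRSF10B, the most abundant of the list, was at 82.1 and 98.7. The list had a median log2 change of 0.45, with 9 of 11 genes higher, whereas the median of all named loci was -0.063 and 45.3% of them were higher.

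None of the 7 channel and import genes of the outer mitochondrial membrane was 2-fold different, beside 14.2% of all named loci, and all 7 were lower, with a median log2 change of -0.24. After the values were centred on the median of all named loci, 6 of the 7 were lower, VDAC2 being the exception. Loci at the levels of 6 of these genes, all but MTCH2, leaned the same way, with 64.9% lower and a median of -0.19 at a mean FPKM of 30 to 100, and 70.0% lower and a median of -0.34 at 100 or more. VDAC1, the most abundant, was at 253 in siNT and 183 in siPAX9. Of the 6 genes that act in the turnover of MCL1 and BIM or hold BIM at the cytoskeleton, none was 2-fold different, a count to be read against the same 14.2%. DYNLL1, a dynein light chain that binds BIM, was the most abundant at 194.9 and 187.8. FBXW7, a ubiquitin ligase subunit that marks MCL1 for degradation, was singled out after its values were seen, at 13.3 and 25.2 (log2 change 0.92).

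Of 9 transcription factors known to act on BH3-only genes, 7 were lower in siPAX9, 2 of them at least 2-fold, beside 54.7% of named loci that were lower and 6.89% that were 2-fold lower. Among loci with a mean FPKM of at least 100, where ATF4 lies, the latter share was 10.3%, and at 1 to 5, where TP73 lies, it was 9.73%. TP73 was at 4.24 in siNT and 1.07 in siPAX9 (log2 change -1.99, or -1.34 with 1 added to each FPKM), and ATF4, the effector of the integrated stress response, was at 404 and 157 (log2 change -1.37). The median of the list was -0.67, beside -0.063 for all named loci.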

How the data were processed

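Poly(A)+ libraries of 6 samples, 3 siNT and 3 siPAX9, were sequenced as single-end reads, aligned to UCSC hg19 with Bowtie 2 and quantified with Cufflinks within Partek Flow by the authors. The deposited FPKM values are 1 per group and locus, with the libraries of a group already combined. How libraries were scaled against each other is not given in the sources used here. The methods of the study give a range of reads per library but no depth per sample or locus, so the precision of an FPKM is unknown. The deposited table also holds the authors' fold changes, test statistics, p-values and q-values, which were not used.

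Members and lists were chosen with earlier results of these data known. Log2 changes were recomputed from FPKM with no pseudocount, for genes that reached an FPKM of 1 in at least 1 group. Named genes were the 10 members, and of other lists those at least 2-fold different, or else the most abundant, and all other family genes above the minimum. BIRC3, TNFRSF10B, FBXW7 and FAS were added after their values were seen. Some items are not reported here. MARCHF5 was found under neither its newer nor its older symbol, but 27 rows carry a date in place of a symbol and may include it. Interval starts were written 1-based. GENCODE release 44 on GRCh37, which has hg19 coordinates, gave strands, exons and sequences, and all 10 member rows overlapped their annotated gene. The counting of 2-fold loci was tested on simulated data with an assumed small spread. That checks the computation only, since the real spread between samples is unknown. Python 3.11.15, numpy 2.4.6, pandas 2.3.3 and matplotlib 3.10.9 were used.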

Additional observations from a re-analysis of the deposited data

How the results depend on the processing

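All 48 alternative log2 changes of single members kept their direction, under a pseudocount of 1 or 0.1, centring, summing over rows and rows with 1 symbol only, and 2 crossed the 2-fold line. They were BCL2 with a pseudocount of 1 (-0.48) and BCL2L1 after centring (1.05). Most of the 48 could not have reversed. A pseudocount cannot change a direction, rows with 1 symbol gave the same values, and summing over rows altered BCL2L1 only. The count of members at least 2-fold different, 1 as reported, was 2 after centring, 2 with no minimum FPKM or with the table's status column in place of the minimum (BCL2 then counts), 3 at a fold of 1.5 and 0 among rows with 1 symbol only, which leaves out MCL1 and BBC3. The median log2 change of the members, 0.039 as reported, was 0.10 after centring, 0.080 with rows of 1 symbol and -0.038 with no minimum or with the status column. The count of named loci, 1816 as reported, was 1136 with a pseudocount of 1, 3982 at a fold of 1.5, 3954 with no minimum and 1022 with an FPKM of at least 5. The count over the other apoptosis lists, 9 as reported, was 21 at a fold of 1.5, 11 with no minimum and 6 with an FPKM of at least 5, a minimum that HRK, CASP10 and TP73 did not reach. Without its most abundant member, the pro-survival sum had a log2 change of 0.96 instead of -0.80, the BH3-only sum one of -0.13 instead of 0.16, and the effector sum one of 0.039 instead of 0.072. With all rows summed, that of the pro-survival sum was -0.78. No paired analysis was possible because the table holds 1 value per group, and no replicate could be left out for the same reason. What depth limits cannot be told, since the reads behind each FPKM are unknown.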

Other observations

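Loci without a gene symbol flank MCL1 on chromosome 1. Within 10 kb beyond the 5′ end of its row, 7 such loci were listed, with FPKM between 1.03 and 5.27 in siNT, and all 7 were lower in siPAX9, with log2 changes from -2.34 to -0.81. Of the 6218 loci without a symbol that reached an FPKM of 1 and had a mean under 5, 28.8% were lower and 8.78% at least 2-fold lower. Most of the 7 were at least 2-fold lower. In siPAX9 most of the 7 were under an FPKM of 0.5, and the precision of ratios at such levels is unknown. The locus nearest to MCL1 (150553149 to 150553399 on hg19) had an FPKM of 5.27 under siNT and 1.04 under siPAX9. On the other side 2 loci were listed, and both were lower, with log2 changes of -0.80 and -0.30. These loci were chosen after their values were seen, and their part in the value of MCL1 was not tested.

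The death receptor FAS, which was singled out after its values were seen, had an FPKM of 23.2 under siNT and 36.1 under siPAX9 (log2 change 0.64).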
